A study of Mus musculus with 235 samples.

Results

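The 4 h response of mouse prefrontal cortex to dexamethasone was read from 29 messenger RNA libraries made from tissue punches labelled PFC, read here as prefrontal cortex, out of 235 libraries in the series. The libraries were chosen by the region and the treatment in the labels, and 14 came from dexamethasone animals and 15 from vehicle animals. All animals were adult male C57Bl/6 mice of 3 months, group-housed, with 15 animals given each treatment, and each library came from 1 animal. No PFC library of 1 dexamethasone animal was analysed here. Dexamethasone, a synthetic agonist of the glucocorticoid receptor, was given into the peritoneal cavity at 10 mg/kg, and vehicle animals received saline by the same route. Brains were perfused and taken 4 h later, and the region was punched from coronal sections, so a punch holds every cell type of the tissue. The series covers 8 regions of the same 30 animals, and each region's arms were compared by differential expression.

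Glucocorticoids enter cells and bind the glucocorticoid receptor, encoded by Nr3c1, which is held by heat shock protein chaperones until it moves to the nucleus. There it raises genes through palindromic DNA elements and lowers others, in part by interfering with other transcription factors. In prefrontal cortex the receptor is found in neurons, glia and vessels, and glucocorticoid action there is known to affect stress regulation, glucose use, inflammation and synaptic plasticity.

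The 29 libraries held 453006 to 1057669 counts each, with a median of 770417 in the dexamethasone and 843655 in the vehicle arm. RNA integrity numbers, on a scale on which higher values mean less degraded RNA, ran from 7.1 to 8.6 in this region, and its median of 7.8 was above the median of each of the other 7 regions (6 to 6.9). Markers of cortical excitatory neurons such as the vesicular glutamate transporter Slc17a7 were abundant. Levels are given in CPM, counts scaled to the library total with TMM factors. Slc17a7 ran from 178 to 452 CPM over the 29 libraries. The summed level of the 21 cortical excitatory markers in the table ran from 5719 to 7454 CPM in vehicle and from 5360 to 7512 CPM in dexamethasone libraries. Vehicle library 2 and dexamethasone library 14 stood apart in myelin markers, with summed levels of 9200 and 7777 CPM against at most 4684 CPM in the others. Leaving both out gave 529 changed genes in place of the 565 below, of which 508 were among the 565.

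Of 9198 genes tested, 565 differed between the arms at an adjusted p under 0.05 (edgeR quasi-likelihood test with Benjamini-Hochberg adjustment over all genes tested), which is 6.14% of those tested. In what follows, a gene that rose, fell or changed is one past this threshold. After dexamethasone 355 genes were higher (3.86%) and 210 were lower (2.28%). With 7 surrogate variables (hidden factors estimated from the counts) in the fit 906 genes changed, 540 higher and 366 lower. Most changes were small: 189 of the risers and 117 of the fallers changed by less than 1.5-fold, and 47 genes rose and 24 fell by at least 2-fold. The median log2 fold change was 0.57 over the risers, -0.55 over the fallers and -0.01 over all genes tested. For 29 genes (0.315%) every dexamethasone library lay above every vehicle library, and for 9 genes (0.0978%) every dexamethasone library lay below. The punches were taken on 5 dates and prepared on 4 plates, with both arms on each. The direction of the changed genes was the same within 1 date for 92.7% of them on the date with 1 animal per arm and for 98.6% to 99.5% on the other 4 dates, and within a plate for 97.5% to 99.8%. The genes were called from these same libraries, so these shares are a description and not a separate test.

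**Figure D1:**
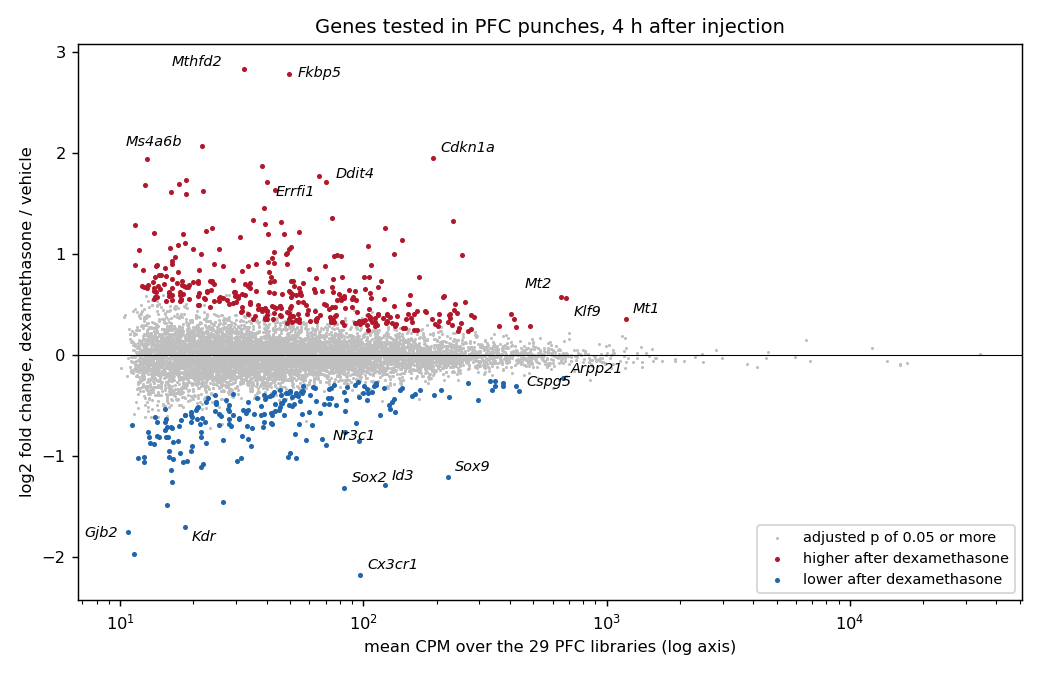
Log2 fold change of dexamethasone over vehicle in PFC punches against the mean CPM over the 29 libraries (log axis), 1 point per tested gene. Red points are the 355 higher and blue points the 210 lower genes. The largest rises, Mthfd2 and Fkbp5, lie near 2.8 and the largest fall, Cx3cr1, at -2.17.

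The largest rise was that of Mthfd2, the mitochondrial folate enzyme that yields one-carbon units for purine synthesis. It ran from 1.55 to 14.2 CPM (median 8.20) in vehicle libraries and from 40.7 to 75.8 CPM (median 58.0) in dexamethasone libraries, so the arms did not overlap. The log2 fold change was 2.83 with a standard error (SE) of 0.15, a 7.11-fold rise (adjusted p = 2.93e-19, edgeR). Fkbp5, a co-chaperone that binds the receptor complex and lowers its affinity for hormone, ran from 5.20 to 26.7 CPM (median 11.0) in vehicle and from 69.2 to 114 CPM (median 89.7) in dexamethasone libraries. Here too every treated library was above every vehicle library, and the log2 fold change was 2.79 (SE 0.15, adjusted p = 8.69e-20, edgeR).

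Further genes with fully separate arms included regulators of growth and stress. Cdkn1a encodes the cell cycle inhibitor p21, and its levels were 55.8 to 128 CPM (median 76.5) in vehicle and 208 to 493 CPM (median 306) after dexamethasone, a log2 fold change of 1.95 (SE 0.11). Trp53inp1, a p53-induced stress gene, was at 8.42 to 33.3 CPM in vehicle and 40.1 to 77.0 CPM in treated libraries (1.87, SE 0.14). For both, 14 of 14 treated libraries were above the highest vehicle value. Ms4a6b, a member of a membrane-spanning family, rose from 3.52 to 13.3 CPM to 21.3 to 46.5 CPM (2.07, SE 0.16). Xdh, the xanthine dehydrogenase of purine breakdown, was at 1.23 to 12.1 CPM against 13.8 to 34.6 CPM (1.94, SE 0.21). Tiparp, a mono-ADP-ribosyltransferase, was at 12.6 to 45.3 CPM in vehicle and 62.8 to 127 CPM in treated libraries (1.78, SE 0.13). The desmosomal gene Pkp2 (3.16 to 14.3 CPM against 17.8 to 38.6 CPM, 1.70, SE 0.17) was separated in the same way.

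Several other large rises had a small overlap of the arms. Nrros, a microglial and macrophage gene that restrains reactive oxygen, had a median of 7.79 CPM in vehicle and 31.1 CPM in treated libraries (log2 fold change 1.74, SE 0.18), and 12 of 14 treated libraries were above the highest vehicle value. Ucp2, a mitochondrial carrier, went from a median of 5.76 to 19.4 CPM (1.69, SE 0.21), Smim3 from 16.5 to 62.3 CPM (1.63, SE 0.16) and the galactosyltransferase gene B4galt1 from 10.5 to 33.7 CPM (1.62, SE 0.17), each with 13 of 14 treated libraries above the vehicle range. Of the exon bases of Ucp2, 305 of 6989 lie opposite Dnajb13, and the use of strand in counting is not given in the sources used here, so reads there cannot be assigned between the genes.

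**Figure D2:**
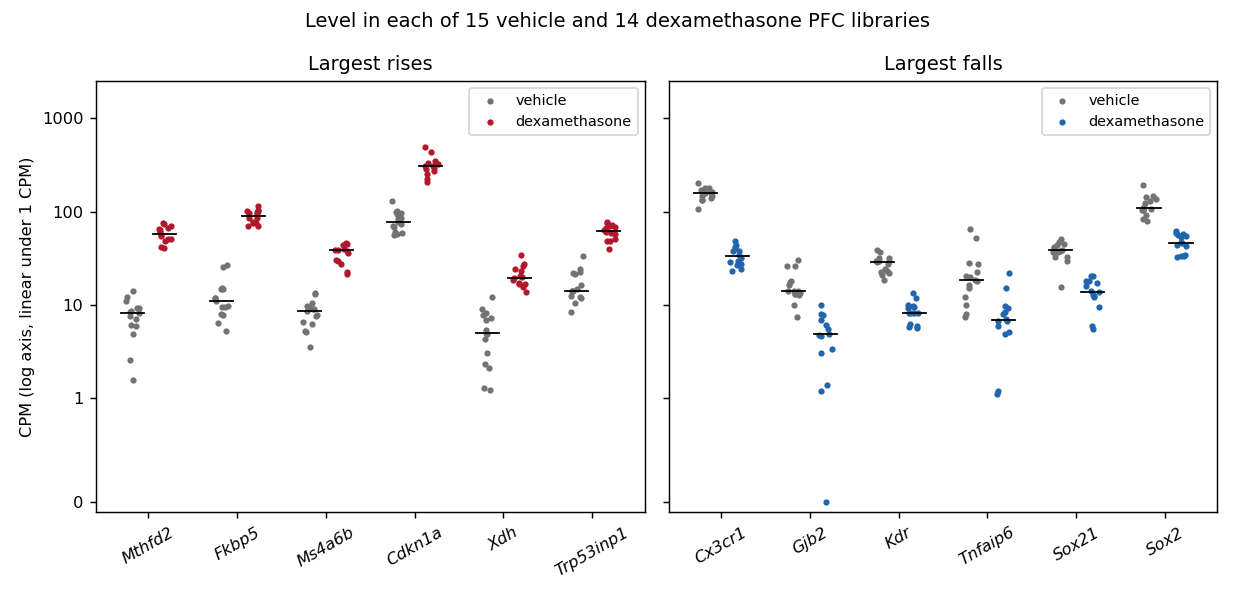
CPM of the 6 largest rises and 6 of the largest falls, 1 point per library (15 vehicle in grey, 14 dexamethasone in red or blue), on a log axis that is linear under 1 CPM, with a bar at each median. Mthfd2, Fkbp5, Ms4a6b, Cdkn1a, Xdh and Trp53inp1 have no overlap between arms, nor do Cx3cr1, Kdr and Sox2, while Gjb2, Tnfaip6 and Sox21 overlap.

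Genes known as glucocorticoid targets moved in one direction. Of 20 listed, 15 were tested, 13 rose and none fell, with a median log2 fold change of 1.00 against -0.01 over all genes tested, beside 3.86% of all tested genes that rose. This list and the other gene lists below were compiled with earlier results on these libraries known, so their counts are descriptions. Some genes, such as Ddit4 and Sgk1, are in more than 1 list and are counted in each. Ddit4, an inhibitor of the growth kinase complex mTORC1, ran from 16.9 to 57.5 CPM in vehicle and from 67.3 to 156 CPM in treated libraries (log2 fold change 1.72, SE 0.15). Errfi1, which blocks the epidermal growth factor receptor, was at 9.30 to 29.2 CPM against 30.3 to 98.2 CPM (1.72, SE 0.14). The arms of both genes did not overlap.

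Nfkbia, which encodes the inhibitor that holds NF-kappaB in the cytoplasm, ran from 79.7 to 194 CPM (median 123) in vehicle and from 281 to 418 CPM (median 342) in treated libraries (log2 fold change 1.33, SE 0.10). Zbtb16, a zinc finger transcription factor, was at 19.7 to 42.1 CPM against 66.9 to 95.2 CPM (1.22, SE 0.10). Again no treated library fell within the vehicle range. Tsc22d3, which encodes the anti-inflammatory leucine zipper protein GILZ, had medians of 85.5 and 187 CPM (1.14, SE 0.13), and 13 of 14 treated libraries exceeded the highest vehicle value. Sgk1, a kinase that acts on ion channels and transporters, had medians of 49.6 and 102 CPM (1.00, SE 0.12), with 10 of 14 above.

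Smaller rises were seen in Mt2 (log2 fold change 0.57), Klf9 (0.56), Gjb6 (0.40), Per1 (0.37) and Mt1 (0.36). Per1, a clock gene, had medians of 31.6 CPM in vehicle and 42.0 CPM in treated libraries with wide overlap, and its adjusted p of 0.0359 became 0.0522 with the animal number as a block. Its call also ended with upper-quartile scaling, with thinned counts and without the library of each arm highest in microglia markers. Mertk, a phagocytic receptor, had a log2 fold change of 0.24 (adjusted p = 0.12, edgeR) and the phosphatase gene Dusp1 of 0.25 (adjusted p = 0.398, edgeR). Mertk passed the threshold in 3 of the alternatives, at log2 fold changes of 0.27 to 0.30. The other 5 list members were too low for the test and are given by their counts summed over the arms. Such summed counts, here and below, are not scaled for the 15 vehicle and 14 treated libraries or for their totals. The lipid droplet gene Plin4 had 48 counts in the 15 vehicle and 243 in the 14 treated libraries, Sult1a1 58 and 170, Map3k6 28 and 64, Arrdc2 38 and 67, and Pdk4 106 and 133. Fitted with no filter on low counts, Plin4 had a log2 fold change of 2.52 (adjusted p = 1.62e-09, edgeR), Sult1a1 of 1.70 and Map3k6 of 1.32, all past the threshold, while Arrdc2 (0.99, adjusted p = 0.106, edgeR) and Pdk4 (0.51, adjusted p = 0.483, edgeR) were not.

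The palindromic receptor element, written here as GNACA and TGTNC with any 3 bases between them and any base at N, was searched for on both strands in RefSeq promoter windows of 300 bases, 250 before and 50 after each start, on GRCm38.p6. A window was given for 7280 of the 9198 genes tested. The element was in a window of 26 of them (0.357%), of 5 of 276 risers with a window (1.81%) and of 1 of 154 fallers (0.649%). The stretches below show 4 of the 5 risers' windows around the element, in capitals, to show the letters of the receptor's known element near the starts of genes that rose. They are given 5′ to 3′ on the strand of the gene.
Sgk1, chr10:21993672-21993744, plus strand: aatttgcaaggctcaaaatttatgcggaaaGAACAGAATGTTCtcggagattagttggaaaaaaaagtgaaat
Txnip, chr3:96557755-96557827, plus strand: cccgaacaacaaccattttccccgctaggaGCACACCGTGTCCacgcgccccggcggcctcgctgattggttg
Ptpdc1, chr13:48593500-48593572, minus strand: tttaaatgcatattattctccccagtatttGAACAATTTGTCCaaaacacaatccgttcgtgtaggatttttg
Mt1, chr8:94178965-94179037, plus strand: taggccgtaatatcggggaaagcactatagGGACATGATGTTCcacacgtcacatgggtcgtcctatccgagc

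The Sgk1 stretch lies in the span of the gene upstream of one of its inner starts and outside annotated exons, with the element 188 to 176 bases before that start. The Txnip element lies 172 to 160 bases before the start, inside an exon of Gm15441, which runs on the opposite strand. In Ptpdc1 the element is 151 to 139 bases before an inner start and in Mt1 94 to 82 bases before the start, both outside exons. The other riser with the element was Tinagl1 (log2 fold change 1.05). Ptpdc1 (0.61) lost its call with thinned counts and without the libraries highest in myelin or in microglia markers. The AP-1 element TGANTCA was in a window of 5.55% of the tested genes, 7.25% of the risers and 6.49% of the fallers. The amino acid response element TGATGNAA was in 2.57%, 2.90% and 3.25%. These are counts of letters in short windows and do not show that any factor was bound.

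Among 31 listed steroid receptors and chaperones, 27 were tested and 1 changed, the receptor gene itself, against 6.14% of all genes tested. Nr3c1 ran from 59.9 to 117 CPM (median 88.0) in vehicle and from 23.3 to 64.0 CPM (median 47.6) in treated libraries, and 11 of 14 treated libraries were below the lowest vehicle value. Its log2 fold change was -0.89 (SE 0.11, adjusted p = 2.39e-08, edgeR), a level 0.539 times that of vehicle. The mineralocorticoid receptor gene Nr3c2 was at -0.14 (adjusted p = 0.832, edgeR). The chaperone genes Hsp90aa1 (0.10), Hsp90ab1 (0.06) and Hspa8 (0.05) and the co-chaperone genes Fkbp4 (-0.20) and Ptges3 (-0.09) did not pass the test. The median over the tested members was -0.04.

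Insulin, FoxO and mTOR signalling couples growth factors and nutrients to cell growth. Of 29 tested members of the insulin, FoxO and mTOR list, 11 rose and none fell, against 3.86% of all tested genes higher and 2.28% lower, with a median log2 fold change of 0.14. Txnip, which inhibits thioredoxin and glucose uptake, had medians of 23.5 and 68.9 CPM (log2 fold change 1.20, SE 0.15), with 10 of 14 treated libraries above the vehicle range. It shares 606 of its 3123 exon bases with Gm15441 on the other strand. Irs2, an insulin receptor substrate, rose from a median of 93.8 to 183 CPM (1.00, SE 0.10), and Klf15, a factor of amino acid and glucose metabolism, from 32.3 to 64.5 CPM (1.00, SE 0.11). For Irs2 13 and for Klf15 12 of 14 treated libraries were above every vehicle library.

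Sesn1, a stress-induced inhibitor of mTORC1, went from a median of 54.0 to 96.3 CPM (0.75, SE 0.09). The Sgk1 target Ndrg1 (0.89, SE 0.16) overlapped widely, with 1 of 14 treated libraries above the highest vehicle library, vehicle library 2, and without the libraries highest in myelin markers its log2 fold change was 0.99. The ubiquitin ligase Nedd4l (0.41), the FoxO factor Foxo3 (0.33), the receptor Igf1r (0.30) and the kinase Sgk3 (0.60) rose less. The call of Igf1r was lost with thinned counts (adjusted p = 0.0527, edgeR). That of Sgk3 was lost without the libraries highest in myelin markers (adjusted p = 0.06, edgeR). The core kinases and their complex members Akt1 (-0.07), Mtor (0.16), Rptor (0.14) and Rictor (-0.05) did not pass the test.

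Of the 18 tested members of the p53 and cell cycle arrest list, 7 rose and 1 fell, against 3.86% of all tested genes higher and 2.28% lower, with a median of 0.22. Gadd45g, a stress gene tied to growth arrest, ran from 13.0 to 28.2 CPM in vehicle and from 29.2 to 94.2 CPM in treated libraries, with no overlap (log2 fold change 1.46, SE 0.14). The survival gene Bcl2l1 (0.57), the p53 target Ccng1 (0.55) and the repressor gene Bcl6 (0.49) rose with wide overlap. Ccnd1, which encodes cyclin D1, fell (-0.49, SE 0.10), and 1100 of its 4709 exon bases lie opposite LTO1. Mdm2 (0.13), Zmat3 (0.00) and Phlda3 (0.07), which p53 is also known to induce, were not past the threshold. Of 8 listed genes too low for the test, Pmaip1 (57 counts in vehicle and 163 in treated libraries) and Gadd45a (56 and 91) passed with no filter on low counts. The other 6 did not, among them Bax (87 and 61), Bbc3 (82 and 48) and Btg1 (108 and 74).

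Of the amino acid response and one-carbon list, 17 of 28 genes were tested, 2 rose and 1 fell, against 3.86% of all tested genes higher and 2.28% lower. The rise of Mthfd2 was accompanied by that of Cebpb (0.74, SE 0.15), a transcription factor of metabolic and inflammatory genes with 312 of 1504 exon bases opposite Tmem189. The cystine transporter Slc7a11 fell (-0.40, SE 0.11), a call that was lost at thinned depth. The regulator Atf4 (-0.11) and its known targets Asns (0.20), Psat1 (-0.08), Ddit3 (-0.29) and Slc3a2 (-0.03) did not pass the test, nor did the one-carbon enzymes Mthfd1 (-0.04) and Mthfd1l (-0.18). The median over the list was -0.04.

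**Figure D3:**
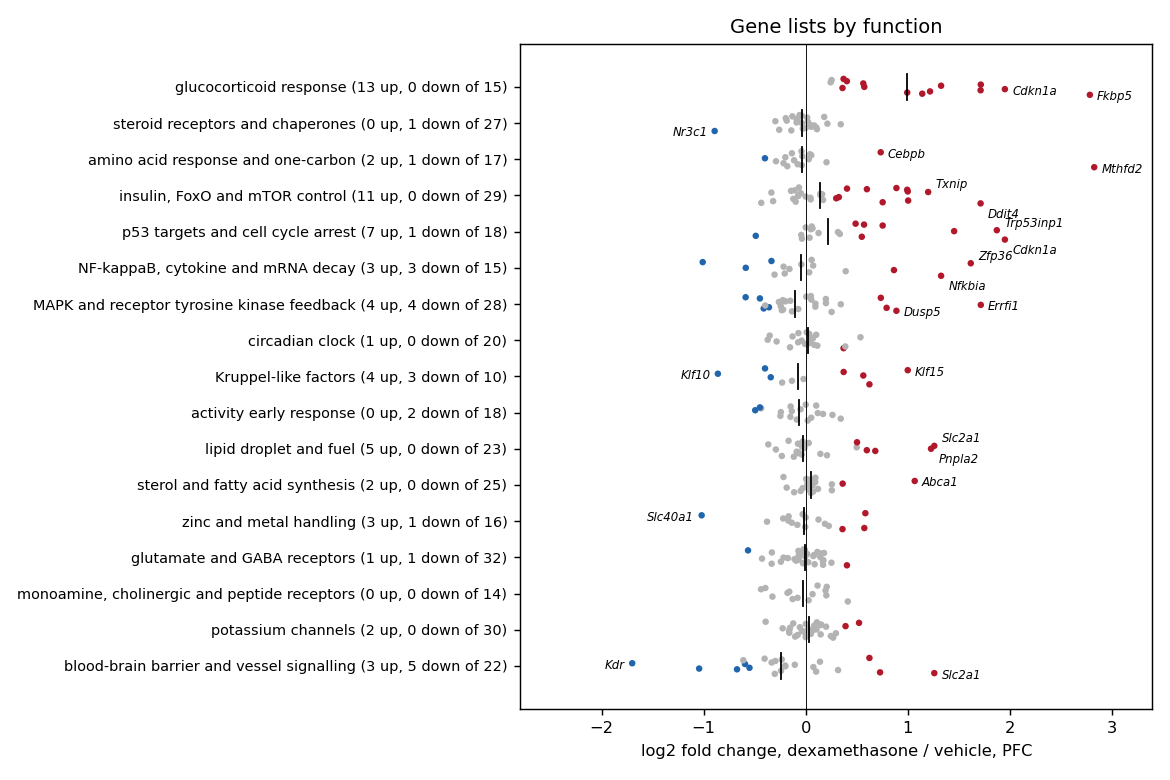
Log2 fold change of each tested gene in 17 lists by function, red for genes that rose, blue for genes that fell and grey for those not past the threshold, with a black bar at each list's median. The larger changes are labelled, and vertical position within a list carries no value. The glucocorticoid response list, with 13 of 15 genes higher, has its median at 1.00, and that of the other 16 lists lies between -0.24 and 0.22.

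Regulators of inflammatory messenger RNA moved both ways. Of 15 tested genes of the NF-kappaB, cytokine and mRNA decay list, 3 rose and 3 fell, against 3.86% of all tested genes higher and 2.28% lower. Zfp36, whose protein tristetraprolin speeds the decay of cytokine transcripts, had medians of 6.56 and 23.6 CPM (log2 fold change 1.62, SE 0.19), with 12 of 14 treated libraries above the vehicle range. Its relative Zfp36l1 ran from 41.8 to 86.5 CPM in vehicle and from 24.1 to 40.5 CPM in treated libraries, with no overlap (-1.01, SE 0.11). For Zfp36l1, 1672 of 2984 exon bases are shared with Gm26669 on the other strand. The receptor gene Il6ra rose (0.87, SE 0.18), and the chemokine gene Cxcl12 (-0.59, SE 0.11) and the cytokine signalling suppressor Socs2 (-0.34) fell. The cytokine genes Il1b, Tnf, Il6 and Ccl2 were among the 21 of 36 listed genes that were too low to test. With no filter on low counts 3 of the 21 passed. Irf8, a microglial transcription factor, had 170 counts in vehicle and 65 in treated libraries, Il1r1, an interleukin receptor gene, 91 and 152, and the cytokine gene Tgfb1 25 and 6.

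Of 28 tested members of the MAPK and receptor tyrosine kinase feedback list, 4 rose and 4 fell, against 3.86% of all tested genes higher and 2.28% lower. Beside Errfi1, the MAP kinase phosphatase genes Dusp5 (0.89, SE 0.18) and Dusp16 (0.79, SE 0.21) rose while Dusp14 fell (-0.41, SE 0.10). A pair of fibroblast growth factor receptors went in opposite directions. Fgfr1 had medians of 90.3 and 153 CPM, with 9 of 14 treated libraries above every vehicle library (0.74, SE 0.09), and Fgfr2 had medians of 48.5 and 32.3 CPM, with 9 of 14 below (-0.59, SE 0.12). The neurotrophin gene Bdnf (-0.45, SE 0.13) and the feedback inhibitor Spry2 (-0.36, SE 0.11) were lower. Of 7 members too low to test, Rasd1 (56 and 124 counts) was the 1 that passed with no filter. The calls of Dusp14, Dusp16 and Spry2 ended at thinned depth, and that of Spry2 also without the libraries highest in myelin markers.

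Early response genes are induced by neuronal activity. Of 18 tested none rose and 2 fell, beside 6.14% of all tested genes that changed, Ier5 with medians of 139 and 95.4 CPM (adjusted p = 0.00444, edgeR) and Bdnf with medians of 64.2 and 57.1 CPM. Fos (0.02, adjusted p = 0.986, edgeR) and Arc (0.17, adjusted p = 0.797, edgeR) overlapped between arms. Of 8 members too low to test, Arl4d had 62 counts in vehicle and 169 in treated libraries and was the 1 that passed with no filter on low counts (1.63). In the circadian clock list 1 of 20 tested genes changed, Per1. The period gene Per2 was at -0.15, the clock regulator Nr1d1 at -0.28 and the clock output gene Dbp at -0.37, and these were not past the threshold.

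Of 10 tested Kruppel-like factors, a family of zinc finger transcription factors, 4 rose and 3 fell, against 3.86% of all tested genes higher and 2.28% lower. Klf9 ran from 415 to 719 CPM in vehicle and from 671 to 970 CPM in treated libraries, 13 of 14 above the highest vehicle library (log2 fold change 0.56, SE 0.07). Beside Klf15, the vascular factor Klf2 (0.62) and Klf13 (0.37) rose. Klf10 (-0.86, SE 0.19), Klf16 (-0.40) and Klf7 (-0.34) were lower. Of the exon bases of Klf7, 3200 of 8131 are shared with Gm13748 and Gm26649 on the other strand, and the call of Klf16 was lost at thinned depth.

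Of 23 tested genes of the lipid droplet and fuel list, 5 rose and none fell, against 3.86% of all tested genes higher and 2.28% lower, with a list median of -0.03. Slc2a1, the glucose transporter of brain endothelium and glia, ran from 39 to 108 CPM (median 74.4) in vehicle and from 109 to 213 CPM (median 181) in treated libraries, without overlap (log2 fold change 1.26, SE 0.11). Pnpla2, the lipase that opens triglyceride stores, had medians of 11.6 and 31.1 CPM, with 12 of 14 treated libraries above (1.23, SE 0.18). The phosphatidate phosphatase Lpin1 (0.60, SE 0.11) and the glycolysis regulator Pfkfb3 (0.50, SE 0.13) rose with overlap. The lipase genes Lipe (0.50, adjusted p = 0.294, edgeR), Lpl (-0.29) and Pnpla8 (-0.01), the neuronal glucose transporter Slc2a3 (-0.01), Hk1 (0.03) and Ldha (-0.08) did not pass the test. Of 8 members too low to test, Plin4, the nuclear receptor gene Ppara (75 and 170 counts) and Angptl4 (25 and 73) passed with no filter on low counts.

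Of 25 tested sterol and fatty acid synthesis genes, 2 rose, against 3.86% of all tested genes. The cholesterol exporter Abca1 had medians of 32.9 and 70.0 CPM, with 13 of 14 treated libraries above the vehicle range (1.07, SE 0.12). Nsdhl (0.36, adjusted p = 0.0323, edgeR) lost its call at thinned depth and without the 2 smallest libraries. Fasn (0.09), the fatty acid synthase gene, did not pass. In the metal handling list 3 of 16 rose and 1 fell, against 3.86% of all tested genes higher and 2.28% lower. The metallothionein gene Mt2 had medians of 510 and 771 CPM (0.57, SE 0.08) and its neighbour Mt1 ran from 870 to 1475 CPM in vehicle and from 1016 to 1973 CPM in treated libraries (0.36, SE 0.08). The copper ferroxidase gene Cp rose (0.59, a call lost at thinned depth), and Slc40a1, which encodes the iron exporter ferroportin, fell from a median of 17.3 to 8.11 CPM (-1.02, SE 0.22). The brain metallothionein Mt3 was at 0.00 (adjusted p = 0.995, edgeR).

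Of 32 tested glutamate and GABA receptor genes, 1 rose and 1 fell, a share near the 6.14% over all genes tested. Gria1, an AMPA receptor subunit, had medians of 370 and 488 CPM, with 8 of 14 treated libraries above the highest vehicle library (log2 fold change 0.40, SE 0.09). Gabrd, the delta subunit of extrasynaptic GABA-A receptors, had medians of 23.2 and 14.7 CPM (-0.57, SE 0.18, adjusted p = 0.0428, edgeR). Its call ended with no filter on low counts and without the libraries highest in myelin markers. None of 14 tested monoamine, cholinergic and peptide receptor genes passed the edgeR threshold, and 25 more of that list were too low to test, of which Adra2a (96 and 135 counts, a log2 fold change of 0.68) was the 1 that passed with no filter on low counts. At an unadjusted p under 0.05, 5 of the 14 tested did, beside 1359 of all 9198 genes tested. Of 30 potassium channel genes 2 rose, again near the share over all genes. The sodium-activated channel Kcnt1 (0.52, SE 0.14) and the background potassium channel Kcnk2 (0.39, SE 0.10) rose, and Kcnk2 lost its call at thinned depth.

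Of 19 tested homeostatic microglia markers, 7 fell, none rose and 12 did not pass the test, against 3.86% of all tested genes higher and 2.28% lower, with a median of -0.18. Cx3cr1, the fractalkine receptor by which microglia sense neurons, ran from 106 to 204 CPM (median 158) in vehicle and from 23.3 to 48.1 CPM (median 33) in treated libraries. The arms did not overlap, and the treated level was 0.222 times that of vehicle (log2 fold change -2.17, SE 0.10, adjusted p = 1.62e-21, edgeR). Sall1, a transcription factor of resident microglia, had medians of 22.1 and 9.60 CPM, with 13 of 14 treated libraries below every vehicle library (-1.14, SE 0.16). The sialic acid receptor gene Cd33 (-1.03), the purine receptor gene P2ry12 (-0.70), Siglech (-0.67), the adaptor gene Tyrobp (-0.54) and the lysosomal protease gene Lgmn (-0.32) were lower. Nrros, the microglial and macrophage gene described above, is not in this list and rose.

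Other listed microglial genes did not pass the test. The growth factor receptor gene Csf1r had medians of 47.6 and 48.8 CPM (0.07, SE 0.12), the protease gene Ctss of 167 and 167 CPM (-0.06, SE 0.09) and the complement gene C1qa of 51.4 and 43.4 CPM (-0.15, SE 0.12). Fewer cells of a type and less RNA per cell cannot be told apart in punches. The summed level of the 24 listed markers ran from 1780 to 3032 CPM (median 2189) in vehicle and from 1526 to 2742 CPM (median 1768) in treated libraries. Vehicle library 1 and dexamethasone library 9 were highest. Without them 6 markers fell, Lgmn no longer among them, and Cx3cr1 was at a log2 fold change of -2.13. Tyrobp and Siglech lost their calls at thinned depth, and Tyrobp and Lgmn with surrogate variables. Of 5 markers too low to test, Gpr34 had 188 counts in vehicle and 41 in treated libraries and P2ry13 187 and 61, and both passed with no filter on low counts. Aif1 had 135 and 78 counts (log2 fold change -0.60 in that fit), Trem2 114 and 100 (0.00) and Olfml3 100 and 98 (0.17), and these 3 did not pass.

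Vessel genes changed in both directions. Of 22 tested genes of the blood-brain barrier and vessel signalling list, 3 rose (Slc2a1, Mfsd2a and Klf2) and 5 fell, against 3.86% of all tested genes higher and 2.28% lower. Kdr, the main receptor of vascular endothelial growth factor, ran from 18.6 to 39 CPM in vehicle and from 5.64 to 13.5 CPM in treated libraries, with no overlap (log2 fold change -1.70, SE 0.15). Its relative Flt1 had medians of 138 and 91.0 CPM, with 11 of 14 treated libraries below (-0.60, SE 0.08). The organic anion and thyroid hormone transporters Slco1c1 (-1.04, SE 0.15), Slco1a4 (-0.67, SE 0.10) and Slco2b1 (-0.55, SE 0.14) fell. Mfsd2a, the lipid transporter that limits transcytosis at the barrier, rose from a median of 37.5 to 62.4 CPM (0.73, SE 0.11). Slc22a8, another organic anion transporter, was among the largest falls, with medians of 24.2 and 11.2 CPM (-1.06, SE 0.18).

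Of 12 tested endothelial markers, 5 fell, namely Kdr, Flt1, Slco1a4, Itm2a (-0.56) and Egfl7 (-0.47, lost at thinned depth), and none rose, against 3.86% of all tested genes higher and 2.28% lower. Pecam1 (-0.14), Ly6c1 (0.16) and Esam (0.11) did not pass the test. The summed endothelial level was 652 to 1056 CPM (median 827) in vehicle and 544 to 744 CPM (median 652) in treated libraries. Of the 8 endothelial genes too low to test, the tight junction gene Cldn5 had 189 counts in vehicle and 58 in treated libraries and the receptor gene Tek 108 and 30. With no filter on low counts both passed the threshold (-1.46 and -1.60). The other 6 did not, at log2 fold changes of -0.85 (Tie1), -0.55 (Eng), -0.50 (Cdh5), -0.39 (Erg), -0.34 (Vwf) and -0.02 (Emcn). In the vessel signalling list, the low genes Edn1 (97 and 154 counts) and Jag1 (158 and 76) also passed with no filter. No pericyte or smooth muscle marker of 5 tested passed the edgeR threshold. An unadjusted p under 0.05 was found for 2, Pdgfrb at a log2 fold change of -0.61 and Abcc9 at 0.41. Over all 9198 genes tested, 1359 had such a p. Of the blood markers, the 4 tested globin genes had log2 fold changes of -0.72 to -0.34 and none passed the edgeR threshold. Of these 4, 2 had an unadjusted p under 0.05, beside the same 1359 of 9198 genes. Whether blood left in the vessels had a part in the vessel results was not tested.

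The counts of changed glial markers are given beside the 6.14% of all tested genes that changed. Of 21 astrocyte markers 1 rose, the connexin gene Gjb6 (0.40, SE 0.10), and 1 fell, Sox9, the factor that specifies astrocytes. Sox9 ran from 228 to 379 CPM (median 312) in vehicle and from 104 to 165 CPM (median 133) in treated libraries, with no overlap (log2 fold change -1.20, SE 0.08, adjusted p = 3.80e-16, edgeR). The water channel Aqp4 (-0.27, adjusted p = 0.141, edgeR) passed the threshold with the animal number as a block (adjusted p = 0.0118, edgeR). Gja1 (-0.08), Slc1a2 (-0.09) and Gfap (-0.07) did not pass. Of 15 myelinating oligodendrocyte markers 1 fell, the transcription factor gene Sox10, with medians of 39.2 and 21.7 CPM (-1.02, SE 0.18). It was at -0.96 without the libraries highest in myelin markers. Mbp (0.09), which encodes myelin basic protein, did not pass. Of 3 members too low to test, Opalin (157 counts in vehicle and 65 in treated libraries) and Aspa (163 and 75) passed with no filter on low counts. Of 9 precursor markers, the sialidase gene Neu4 rose (0.78, SE 0.15).

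**Figure D4:**
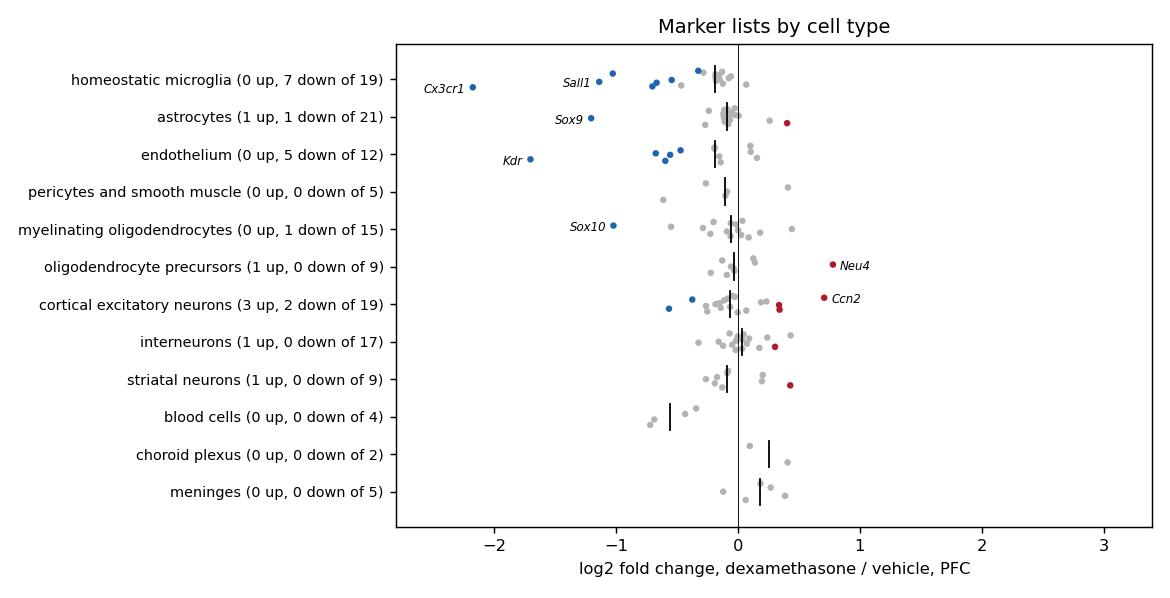
Log2 fold change of each tested gene in 12 cell type marker lists, coloured as in the plot of lists by function, with a black bar at each list's median. The 4 blood markers lie between -0.72 and -0.34, and the points furthest to the left are Cx3cr1, Kdr, Sox9, Sall1, Cd33 and Sox10.

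Among 19 cortical excitatory markers 3 rose and 2 fell, against 3.86% of all tested genes higher and 2.28% lower. The matricellular gene Ccn2 (0.71, SE 0.17), a marker of the deepest layer, Neurod2 (0.34) and Lamp5 (0.34) were higher, and the transcription factor genes Neurod6 (-0.56, SE 0.09) and Tle4 (-0.37) were lower. Neurod6 had medians of 151 and 107 CPM, with 10 of 14 treated libraries below the vehicle range. Slc17a7 was at 0.00 (SE 0.10). Neurod2 and Tle4 lost their calls at thinned depth, and Lamp5 without the 2 smallest libraries. The summed level of the 16 listed striatal markers was 573 to 760 CPM in vehicle and 559 to 753 CPM in treated libraries.

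Sox9 and Sox10 belong to a family of which Sox2 and Sox21 were also among the largest falls, so the whole family was looked at after these values were seen. Of 19 SOX genes measured, 11 were tested, 5 fell and 2 rose, against 3.86% of all tested genes higher and 2.28% lower. Sox2, a factor of neural stem cells and astrocytes, ran from 78.6 to 193 CPM (median 109) in vehicle and from 32.6 to 61.2 CPM (median 46.2) in treated libraries, without overlap (log2 fold change -1.31, SE 0.12). Sox21 had medians of 38.9 and 13.9 CPM (-1.45, SE 0.15) with overlap through 1 low vehicle library at 15.5 CPM. Sox1 had medians of 32.4 and 17.5 CPM (-0.84, SE 0.14). In the other direction, Sox4, a factor of immature neurons and progenitors, ran from 35.1 to 72.6 CPM in vehicle and from 79.1 to 130 CPM in treated libraries, without overlap (0.98, SE 0.10). Sox8 (0.60, SE 0.13) also rose. Sox5 (-0.11), Sox6 (-0.14), Sox11 (-0.10) and Sox17 (0.21) did not pass the test. For Sox4, 2616 of 4795 exon bases are shared with Gm26735 on the other strand.

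Genes of developmental signalling pathways were looked at in the same way, also after their values were seen. Id3, which blocks basic helix-loop-helix factors, ran from 136 to 259 CPM in vehicle and from 30.2 to 102 CPM in treated libraries, without overlap (log2 fold change -1.29, SE 0.11), whereas Id1 (-0.01), Id2 (-0.14) and Id4 (-0.03) did not pass. Of 10 tested Notch pathway genes 3 fell and 1 rose, against 3.86% of all tested genes higher and 2.28% lower. The Notch target Hes5 was at 47.9 to 119 CPM against 18.0 to 46.6 CPM, without overlap (-1.02, SE 0.13), and Nrarp (-0.78) and Hey1 (-0.37) were lower. Lfng, which modifies Notch receptors, was at 11.6 to 28.6 CPM against 29.6 to 63.0 CPM (1.17, SE 0.14). Of the exon bases of Nrarp, 2051 of 2582 are shared with Gm38287 on the other strand. Of 6 tested Hedgehog pathway genes 3 fell, against 2.28% of all tested genes, namely the co-receptor gene Gas1 (-1.26, SE 0.18), the factor gene Gli3 (-0.88, SE 0.19) and the receptor gene Ptch1 (-0.55, SE 0.13).

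A list of Wnt receptors and R-spondins that also holds Vangl1, Vangl2 and Ndp was looked at after its values were seen. Of its 11 tested genes, 6 rose and 3 fell, against 3.86% of all tested genes higher and 2.28% lower. Fzd4 had medians of 13.3 and 35.5 CPM, with 12 of 14 treated libraries above the vehicle range (1.25, SE 0.15), and Vangl1 of 11.1 and 26.2 CPM, with 13 of 14 above (1.20, SE 0.17). Fzd2 (0.91), Fzd1 (0.60), Rspo3 (0.55) and Lrp6 (0.55) rose. Ndp, which encodes a ligand of Fzd4, fell (-0.95, SE 0.17), as did Rspo2 (-0.54) and Lgr4 (-0.44). The calls of Fzd1, Lgr4, Rspo2 and Rspo3 were lost at thinned depth, that of Fzd1 also without the libraries highest in myelin markers, that of Rspo2 with limma-voom and that of Rspo3 with surrogate variables. Small GTPases that steer the actin skeleton were also looked at after their values were seen. Rhou ran from 28.2 to 61.8 CPM in vehicle and from 78.7 to 164 CPM in treated libraries (1.36, SE 0.11), and Rhob from 48.8 to 99.6 to 105 to 209 CPM (1.08, SE 0.10). Neither overlapped. Rnd3 (-0.95) and Rhobtb2 (-0.41) were lower, and Rhobtb2 lost its call with surrogate variables (adjusted p = 0.101, edgeR). Of 6 basement membrane (type IV) collagen genes measured, also looked at after their values were seen, 2 were tested. Both rose, against 3.86% of all tested genes, Col4a1 (1.02, SE 0.13) and Col4a2 (0.84, SE 0.14).

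The remaining large falls were spread over other functions. 2810459M11Rik, a gene with no assigned name, was at 7.75 to 27.0 CPM in vehicle and 1.41 to 7.09 CPM in treated libraries, without overlap (log2 fold change -1.97, SE 0.21). Gjb2, which encodes connexin 26, had medians of 14.1 and 4.85 CPM (-1.75, SE 0.25), with 11 of 14 treated libraries below every vehicle library. The hyaluronan-binding gene Tnfaip6 had medians of 18.4 and 6.95 CPM (-1.49, SE 0.30) and a wide vehicle range of 7.37 to 64.4 CPM. Trim59 (-1.10, SE 0.26), the vascular adhesion gene Mcam (-1.08, SE 0.21) and Evi2a (-1.06, SE 0.28) also overlapped between arms, and their highest vehicle values of 82.4, 85.4 and 46.5 CPM were those of vehicle library 2. Without the libraries highest in myelin markers they were at -0.99, -0.94 and -1.01. Evi2a shares 442 of 2297 exon bases with Evi2 on the same strand.

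Among changed genes with the most counts, Arpc2 (0.29, SE 0.06), a subunit of the actin-nucleating Arp2/3 complex, and the actin regulator Enah (0.28, SE 0.06) rose, with 10 of 14 treated libraries above the vehicle range for each. The proteoglycan gene Cspg5 (-0.36, SE 0.07), the antioxidant enzyme Prdx6 (-0.30, SE 0.08), the chromatin organiser Satb1 (-0.31, SE 0.08), the glial receptor Gpr37l1 (-0.28, SE 0.08) and the neuronal phosphoprotein gene Arpp21 (-0.23, SE 0.07) fell. Satb1, Gpr37l1 and Arpp21 lost their calls without the libraries highest in myelin markers, at log2 fold changes of -0.26, -0.24 and -0.24. Arpp21 also lost its call with no filter on low counts, with the libraries of the authors' table and with thinned counts.

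The response in PFC was set against the mean response of the other 7 regions in 1 edgeR fit over all libraries, with the animal as a factor because all regions come from the same animals. Of 11053 genes tested, 29 differed (0.262%), 13 with a higher and 16 with a lower value in PFC, and 467 had an unadjusted p under 0.05. The labels name the other regions AMY, CER, PVN, dCA1, dDG, vCA1 and vDG. Fitted region by region, PFC had 565 changed genes and the others 316 to 558. The counts of CER (558 of 9035) and PFC (565 of 9198) were close.

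Cdkn1a had the smallest p. Its log2 fold change was 1.95 in PFC and 2.98 to 3.59 in the other regions, a difference from their mean of -1.34 (SE 0.14, adjusted p = 6.31e-14, edgeR). In CPM of the plain library total, the median vehicle level was 76.5 in PFC and 31.5 to 63.3 elsewhere, and the median treated level was 310 in PFC and 319 to 691 elsewhere. So PFC had the highest vehicle and the lowest treated median of the 8 regions. Ccng1 showed the same order in vehicle, with 70.0 in PFC and 40.2 to 60.7 elsewhere, and its log2 fold change was 0.55 in PFC and 0.78 to 2.15 elsewhere (difference -0.72, SE 0.12).

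For several genes the fold change in PFC was below that of the other regions. Znfx1, a helicase of antiviral defence, was at 0.06 in PFC (adjusted p = 0.903, edgeR) and at 0.53 to 1.89 elsewhere (difference -1.0, SE 0.16). The nucleotidase gene Nt5c3 was at 0.16 in PFC and 0.40 to 1.66 elsewhere (-0.67, SE 0.12), and passed the threshold in PFC with surrogate variables in the fit. Phactr3, a regulator of phosphatase 1 and actin, was at 0.40 against 0.45 to 1.73 (-0.56, SE 0.11), and Sgk3 at 0.60 against 1.09 to 2.49 (-1.03, SE 0.21). Dio2, the deiodinase that makes active thyroid hormone, was at 0.53 in PFC and 0.87 to 2.45 elsewhere (-0.84, SE 0.16). Its median vehicle level of 199 CPM of the plain total was again the highest of the regions, against 28.8 to 173 elsewhere.

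**Figure D5:**
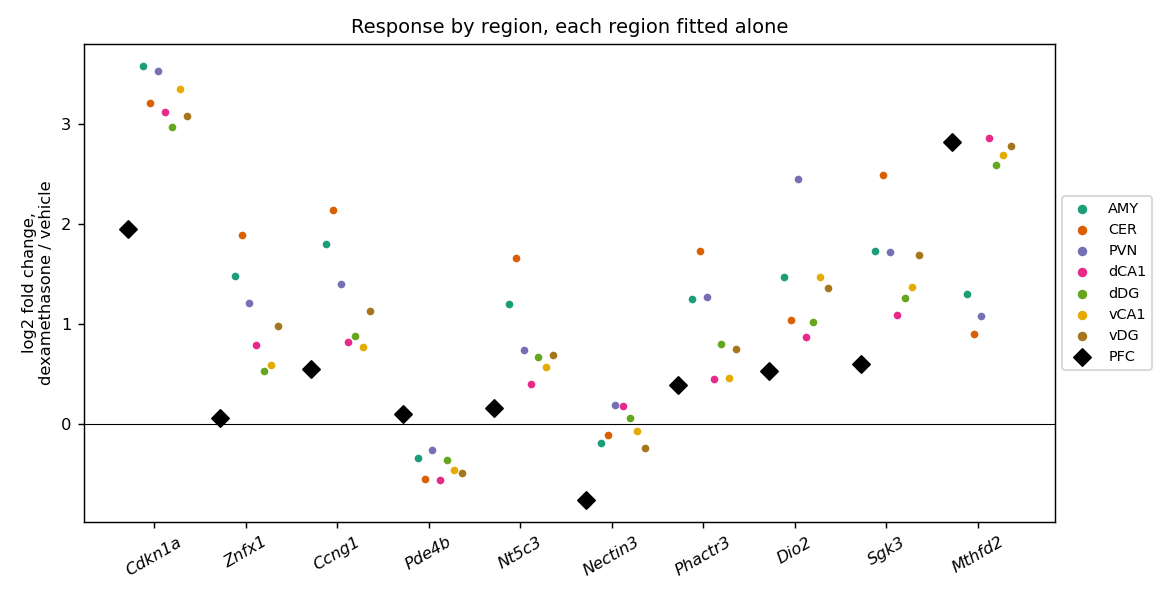
Log2 fold change of dexamethasone over vehicle in each region fitted alone, for 9 of the 10 genes with the smallest p in the comparison of PFC with the other regions and for Mthfd2. Black diamonds are PFC and coloured points the other 7 regions. PFC is lowest for Cdkn1a, Znfx1, Ccng1, Nt5c3, Nectin3, Phactr3, Dio2 and Sgk3, highest for Pde4b, and in the upper group with the hippocampal labels for Mthfd2.

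Pde4b, a phosphodiesterase that degrades cyclic AMP, was at 0.10 in PFC (adjusted p = 0.723, edgeR) and -0.56 to -0.26 elsewhere (difference 0.54, SE 0.09). Nectin3, a cell adhesion gene of synapses, fell in PFC, with medians of 107 and 62.2 CPM and 7 of 14 treated libraries below the vehicle range (-0.76, SE 0.11), and was at -0.24 to 0.19 elsewhere with no other region past its threshold (difference -0.74, SE 0.14, adjusted p = 5.86e-04, edgeR). Mc4r, the melanocortin receptor gene, was too low for the test within PFC. It had 54 counts in vehicle and 197 in treated libraries there, at 1.02 to 10.4 CPM (median 4.65) and 2.00 to 27.6 CPM (median 18.0), and with no filter on low counts its log2 fold change was 2.02 (SE 0.25). The difference from the other regions was 1.49 (SE 0.31, adjusted p = 0.00295, edgeR). Elsewhere, in CPM of the plain total, median vehicle levels were 3.06 to 9.45 and median treated levels 4.61 to 16.0, with Mc4r at 6.43 and 16.0 in vCA1 and at 8.02 and 13.1 in dDG.

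Of the genes described above, Mthfd2 (difference 0.79, SE 0.19), Pkp2 (1.13, SE 0.25) and Dusp16 (0.91, SE 0.21) had a larger response in PFC than the mean of the other regions, and Mertk a smaller one (-0.51, SE 0.12). The log2 fold change of Mthfd2 was 2.83 in PFC, 2.59 to 2.86 in the regions labelled dCA1, dDG, vCA1 and vDG, and 0.90 to 1.3 in AMY, CER and PVN, so the PFC value lay within the range of those 4 regions. Fkbp5, at 2.79 in PFC and 1.65 to 2.73 elsewhere, did not pass the threshold (difference 0.52, adjusted p = 0.118, edgeR).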

How the data were processed

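Messenger RNA was measured as 3' end libraries with unique molecular identifiers (UMIs) and single-end reads, per the labels' protocols. The submitters' processing notes name FastQC 0.11.4, cutadapt, UMI-tools 0.5.4, STAR 2.6.0a, featureCounts 1.6.4, DESeq2 1.30.1, R 4.0.5 and the mouse build mm10. The strand setting and the gene annotation are not given in the sources used here. The deposited table, made by the authors, holds whole-number counts for 27998 genes in 235 libraries, of which 27645 genes had a symbol in the reference tables. A deposited table of log2-like variance-stabilised values for this region, made by the authors, was used only to see which libraries it lists (28 of 29, without dexamethasone library 9).

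The 15 vehicle and 14 dexamethasone PFC libraries were compared by edgeR 4.0.16 in R 4.3.3, with TMM factors, edgeR's default filter on low counts, the quasi-likelihood test, and Benjamini-Hochberg adjustment over the 9198 genes kept. A call needs an adjusted p under 0.05. CPM, which are scaled counts, use the library total times the TMM factor, except where the plain total is named. Library totals were 453006 to 1057669. The comparison with the other regions was 1 edgeR fit with the animal as a factor. Alternatives used DESeq2 1.42.0, limma 3.58.1 and sva 3.50.0. The fits were tested on simulated data. No 2 libraries of an arm agreed within sampling noise.

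Same-numbered animals of the arms shared the date of punching and the plate in 14 of 14 pairs, per the labels, so the numbers pair the libraries. The correlation of their deviations from the arm means was 0.0332 to 0.347 (median 0.215), against a median of -0.0299 for other pairs, was above 0.1 in 10 pairs, and was highest with the own number for 6. The members and gene lists were chosen with earlier results of these data known. Named genes were the 15 largest rises and 15 largest falls among genes averaging 5 CPM or more, the 5 changed genes with the most counts in each direction, the 10 genes with the smallest p against the other regions, and the members of the lists. Family members and a few further genes were named after their values were seen. Some list members are not reported here.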

Additional observations from a re-analysis of the deposited data

Results flagged for a closer look

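The genes below are the 10 with the smallest p in the test of the PFC response against the mean response of the other 7 regions (edgeR, 29 of 11053 genes past the threshold), and each value is the difference of the log2 fold changes. The response was smaller in PFC for Cdkn1a (-1.34), Znfx1 (-1.0), Ccng1 (-0.72), Nt5c3 (-0.67), Phactr3 (-0.56), Dio2 (-0.84) and Sgk3 (-1.03). Cdkn1a, Ccng1 and Sgk3 are a cell cycle inhibitor, a p53 target and a kinase of the Sgk family. Nectin3 differed by -0.74, with a fall in PFC alone past the threshold. The difference was 0.54 for Pde4b, whose log2 fold change was below 0 in each of the other regions, and 1.49 for Mc4r, a gene too low to be tested within PFC. RNA integrity was higher in PFC (median 7.8) than in the other regions (medians 6 to 6.9), and its part in these differences was not tested.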

How the results depend on the processing

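With 7 surrogate variables in the fit 906 genes changed in place of 565, 540 higher and 366 lower, and the cause was not tested. Against AMY, CER and PVN only, 46 genes differed from PFC in place of 29, a comparison with fewer libraries. With the animal number as a replicate block 738 genes changed, Per1 (adjusted p = 0.0522, edgeR) was no longer past the threshold and Aqp4 passed it, and 157 of the 160 single genes examined kept their side of the threshold under this pairing. The other settings gave 408 genes (counts thinned to 453006 per library) to 764 genes (no filter on low counts, 18817 tested). With DESeq2 it was 589 and with limma-voom 559. Of the 144 changed genes among these, 30 lost their call under at least 1 setting, 23 of them with thinned counts and 13 with thinned counts alone. None of the 144 changed genes reversed its direction under any setting. 3 settings were chosen after seeing the data: without the 2 smallest libraries (602 genes), and without the libraries highest in myelin (529) or microglia markers (584).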
